A study of Homo sapiens with 4 samples.

Results

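The vitamin D genes described here are 10 of the 60683 genes in the tables: CYP24A1, VDR, CYP27B1, CYP2R1, CYP27A1, RXRA, RXRB, TRPV6, CAMP and CYP3A5. They were picked by name from vitamin D metabolism, its receptor and its targets, with the difference between FOXD2 and empty vector libraries of this series already known, so their differences are given as a description with no p-value. RNA was measured in HCT116, an established colorectal carcinoma line of epithelial origin, as 4 polyA libraries. FOXD2 cells (2 libraries) had been transduced with a pSin lentivirus that delivers the whole open reading frame of the forkhead factor gene FOXD2, and empty vector cells (2 libraries) with the pSin virus without it. Both were stable lines kept in medium with serum and puromycin, and the labels name no vitamin D treatment and do not say whether a line came from 1 clone.

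Vitamin D becomes active in steps carried out by cytochrome P450 enzymes: a 25-hydroxylase, chiefly CYP2R1 and in part CYP27A1, makes calcidiol, and the 1-alpha-hydroxylase CYP27B1 makes calcitriol. Calcitriol binds the nuclear receptor VDR, which works as a heterodimer with a retinoid X receptor such as RXRA or RXRB. The 24-hydroxylase CYP24A1 starts the breakdown of both metabolites and is itself among the genes most strongly induced by liganded VDR, in colon epithelium as elsewhere, so the pathway holds its own brake. CYP3A5, a drug-metabolizing P450 of liver and gut, belongs to a family with VDR-responsive members, TRPV6 is an apical calcium channel of intestinal epithelium, and CAMP encodes the antimicrobial peptide cathelicidin.

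The promoter stretches of CYP3A5 and CYP2R1 are shown because both genes were higher in FOXD2 cells and these windows hold more than 1 receptor half-site, so they were picked with both the values and the letters known. They are the 250 bases before the RefSeq start (GRCh38.p14), minus strand of chr7:99679997-99680246 for CYP3A5 and of chr11:14892444-14892693 for 1 of the 3 listed starts of CYP2R1. Capitals mark nuclear receptor half-sites on either strand, which were searched as the consensus AGGTCA and as the variants with the letters AGTTCA, with the letters GGTTCA and with the letters GGGTCA.
CYP3A5: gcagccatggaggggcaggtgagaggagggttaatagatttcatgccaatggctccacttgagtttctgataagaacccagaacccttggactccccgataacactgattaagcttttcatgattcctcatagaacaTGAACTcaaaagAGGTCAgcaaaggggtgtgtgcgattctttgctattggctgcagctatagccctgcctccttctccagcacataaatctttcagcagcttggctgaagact
CYP2R1: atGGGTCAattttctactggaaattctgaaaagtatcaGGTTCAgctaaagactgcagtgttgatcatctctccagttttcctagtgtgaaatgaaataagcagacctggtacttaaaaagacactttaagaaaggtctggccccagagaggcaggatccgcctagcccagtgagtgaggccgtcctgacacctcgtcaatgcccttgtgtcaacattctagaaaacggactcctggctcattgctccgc
In CYP3A5 the half-sites start 113 and 101 bases before the start, point away from each other and have 6 bases between them, an everted repeat of the kind known in CYP3A genes as a site for PXR and VDR. In CYP2R1 they start 248 and 212 bases before the start. NR1I2, the gene of PXR, had 0 counts in every library. Over all 35116 promoter windows of the same length, 33.8% held at least 1 half-site, as did 5 of the 11 windows of these genes, and 0.0342% held a pair everted with 6 bases between. A pair in direct repeat with 3 bases between, the classical VDR element, was in 0.0655% of all windows and in none of the 11 windows of these genes. The forkhead core TGTTTAC, on either strand, was in 2.98% of all windows and in none of the 11. A window of CYP27A1, too low to be tested, also held 2 half-sites, and neither window of RXRB, which was higher in FOXD2 cells, held any. Promoters were matched for 7 of the 10 genes and not for CYP24A1, VDR or CYP27B1. A match is a string of letters and no measured binding.

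FOXD2 itself had 275.86 and 256.58 TPM in FOXD2 cells, against 1.84 and 1.42 TPM in empty vector cells, as a check of the labels. TPM (transcripts scaled to a fixed total per library) is the authors' length-corrected level. Each library held between 14231368 and 15535845 counts. Mitochondrial genes took 10.644% and 10.866% of counts in FOXD2 libraries and 8.806% and 8.999% in empty vector libraries. Of 10 colon epithelium markers, EPCAM, KRT8, KRT18 and KRT19 were abundant and 4 markers (CDX1, VIL1, LGALS4 and CDH17) were under 1 TPM in every library. The summed level of this list was 7485.8 and 7162.7 TPM in FOXD2 cells and 3939.2 and 3947.6 TPM in empty vector cells, nearly all of it keratins and EPCAM. Not every marker went that way: CDX2, a colon transcription factor, was lower in FOXD2 cells (log2 ratio -0.51, edgeR adjusted p = 0.001), and KRT20 had a ratio of -0.97 and did not pass (0.053). Markers of blood cells (7 genes) and endothelium (4 genes) summed to at most 0.59 TPM in any library, with PTPRC, CD3E, MS4A1, HBB and CDH5 at 0 counts. Fibroblast markers summed to 13.8 and 16.1 TPM in FOXD2 cells and 4.08 and 3.21 TPM in empty vector cells, nearly all of it COL1A1, with COL1A2, DCN and LUM at 0 counts. Renal tubule markers summed to at most 8.4 TPM with UMOD and SLC12A1 at 0, and stratified epithelium markers to at most 45.5 TPM with KRT1 at 0. Nearly all of the latter sum was KRT10, which was lower in FOXD2 cells (log2 ratio -0.37). IVL (22 and 16 counts in FOXD2 libraries, 0 and 1 in empty vector libraries) and KRT14 (12 and 10, 5 and 0) went the other way at low counts. The part of these lists and of the mitochondrial share in the values below was not tested. In bulk RNA, fewer cells that express a gene and less RNA per cell cannot be told apart.

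CYP24A1 was lower and VDR, RXRB, CYP2R1 and CYP3A5 were higher in FOXD2 cells, while CYP27B1 and RXRA did not pass the threshold of the test. That threshold was an adjusted p of 0.05 in the edgeR quasi-likelihood test over all genes. Of the 10 genes 7 passed the filter on low counts, and of these 4 were called higher and 1 lower, beside 27.2% of all 14470 tested genes called higher, 26.4% called lower and 53.5% called in either direction. As the genes were chosen with this comparison known, nothing is read from that count. TRPV6, CYP27A1 and CAMP did not pass the filter. CYP3A5 passed it through the FOXD2 libraries only, where it is high.

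CYP24A1 (ENSG00000019186, chromosome 20, 54153449 to 54173973, minus strand, GRCh38) had 8.46 and 8.85 TPM in FOXD2 cells, against 66.02 and 64.17 TPM in empty vector cells. The 2 groups were far apart, and replicates within each were close. In counts this was 208 and 174 in FOXD2 libraries and 1348 and 1398 in empty vector libraries. The level was 12.6 ± 1.04 CPM (counts scaled to library size) in FOXD2 cells and 94.5 ± 2.69 CPM in empty vector cells (SD, n = 2 each), a fitted log2 ratio of -2.90 (SE 0.09, 95% interval -3.09 to -2.71), or 7.47-fold lower. This was the 11th lowest ratio of the 14470 tested genes. By mean TPM, CYP24A1 lay above 39.1% of tested genes in FOXD2 cells and above 85.8% in empty vector cells. No library decided the value, which lay between -3.0 and -2.82 with each library left out in turn.

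CYP3A5, the drug-metabolizing P450 of the group (ENSG00000106258, chromosome 7, 99648194 to 99680026, minus strand), was higher in FOXD2 cells at a low level. It had 1.88 and 2.16 TPM in FOXD2 cells and 0.60 and 0.08 TPM in empty vector cells. The counts behind these were 43 and 57 in FOXD2 libraries and 5 and 2 in empty vector libraries, so the groups did not overlap but the lower one rests on 7 counts. The fitted log2 ratio was 3.74 (SE 0.47, interval 2.80 to 4.68). Without empty vector replicate 1 it was 4.56, which shows how far few counts can move it. On log2(TPM + 1), which understates changes of low genes, the difference was 1.2. CYP3A4, its better known neighbour and a textbook VDR target in gut, had 0 counts in all 4 libraries, and CYP3A7 had 1 count in all.

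**Figure D1:**
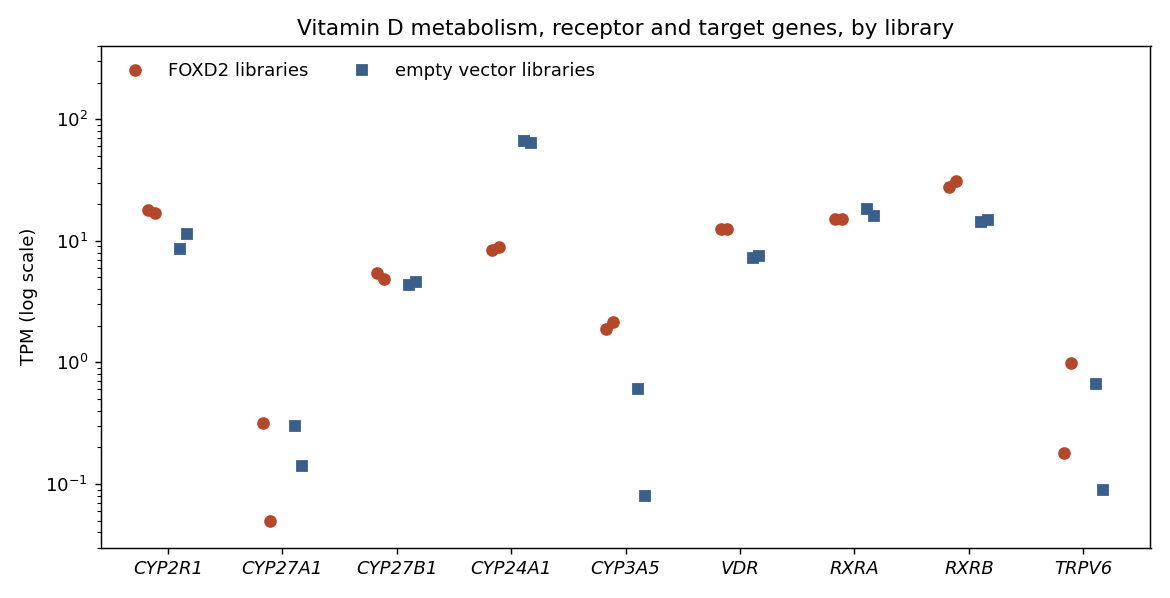
Level of 9 vitamin D genes in each library (TPM, log axis), with FOXD2 libraries as circles and empty vector libraries as squares. CYP24A1 sits at 8.46 and 8.85 TPM in FOXD2 cells and at 64.17 and 66.02 TPM in empty vector cells, whereas points of CYP27A1 and TRPV6 lie under 1 TPM with the groups mixed. CAMP, at 0 in every library, is not drawn.

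The enzymes that make the hormone differed from one another. CYP2R1 (ENSG00000186104, chromosome 11, 14877440 to 14892252, minus strand), the main 25-hydroxylase, had 17.84 and 16.94 TPM in FOXD2 cells, against 8.52 and 11.36 TPM in empty vector cells. The groups did not overlap, and in TPM the spread was wider in empty vector cells. The fitted log2 ratio was 1.03 (SE 0.14), a level of 18.0 ± 1.46 CPM in FOXD2 cells and 8.84 ± 1.37 CPM in empty vector cells (SD, n = 2 each). CYP27A1 (ENSG00000135929), a mitochondrial sterol hydroxylase, had 5 and 1 counts in FOXD2 libraries and 6 and 2 in empty vector libraries. At that depth no difference was detectable.

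CYP27B1 (ENSG00000111012, chromosome 12, 57762334 to 57768986, minus strand), which makes the active hormone, had 5.40 and 4.88 TPM in FOXD2 cells and 4.31 and 4.59 TPM in empty vector cells. Counts were 106 and 97 in FOXD2 libraries and 86 and 113 in empty vector libraries. Scaled to library size the groups overlapped, whereas in TPM they were just apart, with FOXD2 cells higher. Its fitted log2 ratio was -0.02 (SE 0.19, interval -0.40 to 0.35), with a sign that changed between settings. A difference as large as that of CYP24A1 or CYP2R1 lies outside this interval. Its annotation overlaps that of METTL1 by 516 bases on the same strand. METTL1 had 403 and 329 counts in FOXD2 libraries and 352 and 393 in empty vector libraries. The posterior SD that RSEM gives for the CYP27B1 count, its measure of doubt in assigning reads, was 0.0 in all 4 libraries. The part of this overlap in the CYP27B1 value was not tested.

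Set against the enzymes that make the hormone, the level of CYP24A1 was lower in FOXD2 cells by either measure. The TPM of CYP24A1 over that of CYP27B1 was 1.57 and 1.81 in FOXD2 cells and 15.3 and 14 in empty vector cells. Over CYP2R1 it was 0.474 and 0.522 in FOXD2 cells and 7.75 and 5.65 in empty vector cells, so that CYP2R1 had the higher level in FOXD2 cells and CYP24A1 in empty vector cells. These are ratios of RNA, not of enzyme activity.

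The receptor subunits also differed from one another. VDR (ENSG00000111424, chromosome 12, 47841537 to 47943048, minus strand) had 12.60 and 12.45 TPM in FOXD2 cells, against 7.20 and 7.49 TPM in empty vector cells. Counts were 659 and 568 in FOXD2 libraries and 328 and 382 in empty vector libraries, and the groups did not overlap. The fitted log2 ratio was 0.73 (SE 0.10, interval 0.54 to 0.93), or 1.66-fold higher. Measured over VDR, CYP24A1 had a TPM ratio of 0.671 and 0.711 in FOXD2 cells and of 9.17 and 8.57 in empty vector cells. On the other strand, the annotated antisense gene ENSG00000205537 overlaps VDR by 18877 bases and had 0 counts in every library, and the lincRNA ENSG00000278385 overlaps it by 1744 bases and had at most 18.

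RXRB (ENSG00000204231, chromosome 6, 33193588 to 33200688, minus strand) had 27.62 and 30.94 TPM in FOXD2 cells and 14.29 and 14.90 TPM in empty vector cells. Its fitted log2 ratio was 0.66 (SE 0.09), from 46.8 ± 0.817 CPM in FOXD2 cells and 29.5 ± 1.32 CPM in empty vector cells (SD, n = 2 each). RXRB overlaps SLC39A7 on the other strand by 244 bases. SLC39A7 had 3262 and 2959 counts in FOXD2 libraries and 2056 and 2185 in empty vector libraries. The strand setting of the counting is not given in the sources used here. For RXRB too the posterior SD of the count given by RSEM was 0.0 in every library. The part of the SLC39A7 overlap in the RXRB value was not tested. RXRA (ENSG00000186350, chromosome 9, 134317098 to 134440585, plus strand) had 15.13 and 15.02 TPM in FOXD2 cells and 18.12 and 16 TPM in empty vector cells. Its fitted log2 ratio was -0.17 (SE 0.08), which did not pass the threshold, although it did with another scaling factor (RLE, -0.18). RXRG, the third retinoid X receptor, had 0 counts in every library.

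In TPM, RXRB thus made up 64.6% and 67.3% of the summed RXRA and RXRB level in FOXD2 cells, against 44.1% and 48.2% in empty vector cells. The sum was 42.8 and 46.0 TPM in FOXD2 cells and 32.4 and 30.9 TPM in empty vector cells. VDR over RXRA was 0.833 and 0.829 in FOXD2 cells and 0.397 and 0.468 in empty vector cells on the same scale. In CPM, which is not corrected for length, RXRA had means of 61.5 in FOXD2 cells and 69.2 in empty vector cells. RXRB had 46.8 and 29.5 CPM, so RXRA was above it in both groups. The part of RXRB transcript length and of the SLC39A7 overlap in the TPM shares was not tested.

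Both intestinal and antimicrobial targets were close to or at the limit of detection. TRPV6 (ENSG00000165125, chromosome 7) had 8 and 24 counts in FOXD2 libraries and 7 and 3 in empty vector libraries. In TPM this was 0.18 and 0.99 in FOXD2 cells and 0.67 and 0.09 in empty vector cells, so the groups overlapped in TPM, whereas in CPM (0.514 and 1.64 in FOXD2 cells, 0.501 and 0.199 in empty vector cells) they were just apart. CAMP (ENSG00000164047, chromosome 3) had 0 counts in all 4 libraries. This allows up to 0.215 CPM (3 counts) in empty vector replicate 1, where the limit was highest, counting error only.

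**Figure D2:**
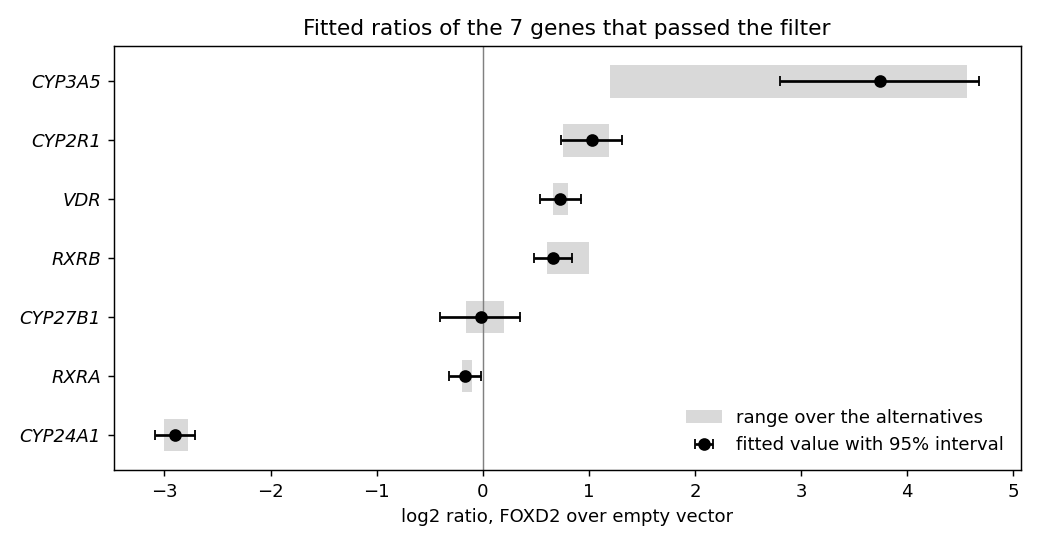
Fitted log2 ratio of FOXD2 over empty vector for the 7 genes that passed the filter (points), its 95% interval (bars) and the range of values over the alternative analyses (grey). CYP24A1 lies alone at -2.90, CYP27B1 at -0.02 and RXRA at -0.17 lie next to 0, and CYP3A5, with 7 counts in empty vector libraries, has the widest range.

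In FOXD2 cells the order of mean TPM was RXRB (29.3), CYP2R1 (17.4), RXRA (15.1), VDR (12.5), CYP24A1 (8.66), CYP27B1 (5.14), CYP3A5 (2.02), TRPV6 (0.585) and CYP27A1 (0.185). Only TRPV6 and CYP27A1 are neighbours in this order whose libraries overlapped. In empty vector cells the order was CYP24A1 (65.1), RXRA (17.1), RXRB (14.6), CYP2R1 (9.94), VDR (7.35) and CYP27B1 (4.45), none overlapping its neighbour, followed by TRPV6, CYP3A5 and CYP27A1, which all overlapped, with means of 0.38 TPM or less.

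RSEM also gives each gene a mean transcript length, weighted by the isoforms it assigned reads to, which the choice of the genes did not use. For RXRB it was 2400 and 2159 bases in FOXD2 cells and 2768 and 2751 bases in empty vector cells. For CYP27B1 it was 1821 and 1983 bases in FOXD2 cells and 2035 and 2237 bases in empty vector cells. CYP2R1 had 1576 and 1520 bases in FOXD2 cells and 1389 and 1282 bases in empty vector cells. These 3 of the 7 tested genes had groups that did not overlap, 1 with longer and 2 with shorter transcripts in FOXD2 cells. Among all tested genes whose length varies, 19.9% had longer and 19.7% shorter transcripts in both FOXD2 libraries than in either empty vector library, so the count is near the background. For CYP24A1, VDR, RXRA and CYP3A5 the groups overlapped. TPM divides by this length and CPM does not. The difference of RXRB was 1.0 with limma on log2(TPM + 0.1) and 0.66 in the fit on counts, and the part of length in this was not tested.

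**Figure D3:**
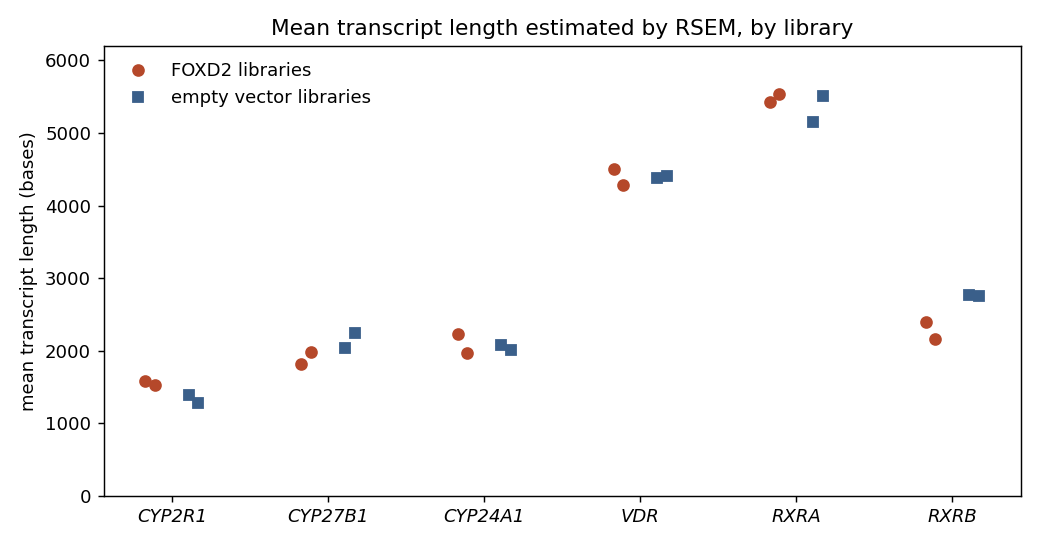
Mean transcript length in bases, as estimated by RSEM, for the 6 genes with at least 86 counts in every library, with FOXD2 libraries as circles and empty vector libraries as squares. RXRB lies at 2159 and 2400 bases in FOXD2 cells, below 2751 and 2768 bases in empty vector cells, and the groups of CYP24A1, VDR and RXRA overlap.

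Other genes of the pathway were then read from 6 lists of 109 genes. Of the 69 that passed the filter, 23 were higher (33.3%) and 20 lower (29%), with a median log2 ratio of 0.06, beside 27.2% higher, 26.4% lower and a median of 0.01 over all tested genes. With library totals in place of the scaling factor the split was 28 higher and 16 lower. The lists were drawn up with earlier results of these data known, and no list is set apart by these counts. Genes named from them were mostly picked by the size of their ratio past the threshold, so their p-values are descriptive and no independent support.

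Enzymes, electron donors and carriers of vitamin D were mostly silent or little changed. Of 14 genes 6 were tested, of which 1 was higher and 2 lower (median log2 ratio 0.05). The background over all tested genes was 27.2% higher and 26.4% lower. FDX1, the ferredoxin that passes electrons to the mitochondrial hydroxylases CYP24A1, CYP27B1 and CYP27A1, fell to 24.2 ± 0.629 CPM in FOXD2 cells, against 35.5 ± 1.63 CPM in empty vector cells (SD, n = 2 each; log2 ratio -0.55, SE 0.10, edgeR adjusted p = 4e-06). FDXR, the reductase that charges it, had a ratio of 0.16 and did not pass (adjusted p = 0.095), and neither did POR (-0.05), the partner of microsomal enzymes such as CYP2R1. DHCR7, which takes the vitamin D precursor 7-dehydrocholesterol to cholesterol, was lower by a small amount (-0.32, SE 0.07, adjusted p = 6.4e-05; 0.083 with limma on log2(TPM + 1) and no filter). CYP2J2, an epoxygenase with reported 25-hydroxylase activity, was higher (1.17, SE 0.38, adjusted p = 0.0089). It did not pass with DESeq2 (adjusted p = 0.18), nor in fits lacking FOXD2 replicate 2 (0.13) or empty vector replicate 1 (0.10). The carrier protein gene GC and the conjugating enzymes UGT1A3, UGT1A4 and SULT2A1 had 0 counts in every library.

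Coregulators of VDR differed by small amounts. Of 20 genes 19 were tested, of which 3 were higher and 7 lower (median -0.08). Among all tested genes 27.2% were higher and 26.4% lower. NRIP1, a nuclear receptor corepressor, fell to 24.0 ± 1.14 CPM in FOXD2 cells, against 43.4 ± 1.33 CPM in empty vector cells (log2 ratio -0.85, SE 0.09, edgeR adjusted p = 3.9e-11). CARM1, an arginine methyltransferase coactivator, was also lower (-0.62, adjusted p = 7.5e-12), as were BAZ1B (-0.30), a subunit of a VDR-binding remodelling complex, and NCOA2 (-0.35), a p160 coactivator. NCOA2 did not pass with limma on log2(TPM + 1) (adjusted p = 0.18) or in the fit lacking empty vector replicate 1 (0.078). BRD9, a bromodomain protein, was higher (0.52, SE 0.09, adjusted p = 8.8e-07). With limma on log2(TPM + 1) and no filter, BRD9 (0.055) and BAZ1B (0.066) did not pass. Values for NCOA1 (0.19) and SNW1 (-0.10) did not pass.

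Transport targets gave few measurable genes. Of 11 genes 4 were tested, of which 1 was higher and 1 lower, beside 27.2% higher and 26.4% lower over all tested genes. CLDN2, a claudin that forms cation pores between epithelial cells, had 78 and 44 counts in FOXD2 libraries, against 6 and 5 in empty vector libraries (log2 ratio 3.38, SE 0.41). It passed the filter on low counts only through the FOXD2 libraries, where it is high, so it had to differ and no p-value is given. ATP2B1, the plasma membrane calcium pump, was lower (-0.18, adjusted p = 0.025), a call that ended under most alternatives, among them DESeq2 (0.072) and 3 of the 4 that leave out a library (0.064 without empty vector replicate 1, 0.20 without empty vector replicate 2, 0.084 without FOXD2 replicate 1). The calbindin gene S100G, the phosphate carrier SLC34A2 and the exchanger SLC8A1 had 0 counts in all libraries, and TRPV5 had 1 count in all.

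Other genes reported to respond to vitamin D went in both directions. Of 40 genes 27 were tested, of which 13 were higher (48.1%) and 6 lower (22.2%), with a median of 0.28. Over all tested genes 27.2% were higher and 26.4% lower, with a median of 0.01. As this list was drawn up with earlier results known, nothing is read from its shares. KLK6, a secreted serine protease, had 185.8 ± 5.44 CPM in FOXD2 cells and 41.7 ± 3.28 CPM in empty vector cells (SD, n = 2 each; log2 ratio 2.15, SE 0.07, edgeR adjusted p = 1.7e-31). ALOX5, the leukotriene-forming lipoxygenase (2.52), the matrix protein gene SPP1 (2.02) and IGFBP3, a binding protein of insulin-like growth factors (1.60), were higher at low levels, with at most 116 counts in any library. The CDK inhibitor CDKN1A was higher by 1.43 (SE 0.10, adjusted p = 1.6e-05). In the other direction AREG, the EGF receptor ligand amphiregulin, fell to 61.1 ± 10.3 CPM in FOXD2 cells, against 229.9 ± 3.34 CPM in empty vector cells (-1.91, SE 0.08, adjusted p = 4.1e-16). The IGFBP3 call ended with limma on log2(TPM + 1) (adjusted p = 0.051).

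Mineral hormones and the other partners of RXR also held large single differences. Of 10 genes of the hormone axis 3 were tested, and the 2 stanniocalcins, secreted regulators of calcium and phosphate, went opposite ways. STC1 had 182 counts in FOXD2 cells and 2 in empty vector cells, a ratio of 87.6 after scaling (exact 95% interval 23.9 to 729). That interval pools the libraries of each group and covers counting error only. Like CLDN2, STC1 passed the filter on low counts only through the FOXD2 libraries, so it had to differ and no p-value is given. STC2 was lower in FOXD2 cells (-1.10, SE 0.11, edgeR adjusted p = 1.1e-07). CASR, PTH, FGF23 and KLB had 0 counts in all libraries. Of 14 other RXR partners 10 were tested, with 4 higher and 3 lower, beside 27.2% higher and 26.4% lower over all tested genes. PPARG, the lipid-sensing receptor of gut and fat, fell to 10.9 ± 0.758 CPM in FOXD2 cells, against 42.0 ± 3.32 CPM in empty vector cells (-1.94, SE 0.11, adjusted p = 2.2e-21), and RARG, a retinoic acid receptor, was lower too (-1.05). The orphan receptor NR4A1 (1.71) and PPARA (0.52) were higher, PPARA not with limma on log2(TPM + 1) and no filter (adjusted p = 0.086). THRB, a thyroid hormone receptor, was higher on counts (1.03, adjusted p = 0.00088; 0.056 with DESeq2) but had 0.90 and 1.22 TPM in FOXD2 cells and 1.0 and 1.11 TPM in empty vector cells. NR1H2 passed narrowly (0.28, adjusted p = 0.027), and not without FOXD2 replicate 1 (0.16), empty vector replicate 1 (0.20) or empty vector replicate 2 (0.07).

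**Figure D4:**
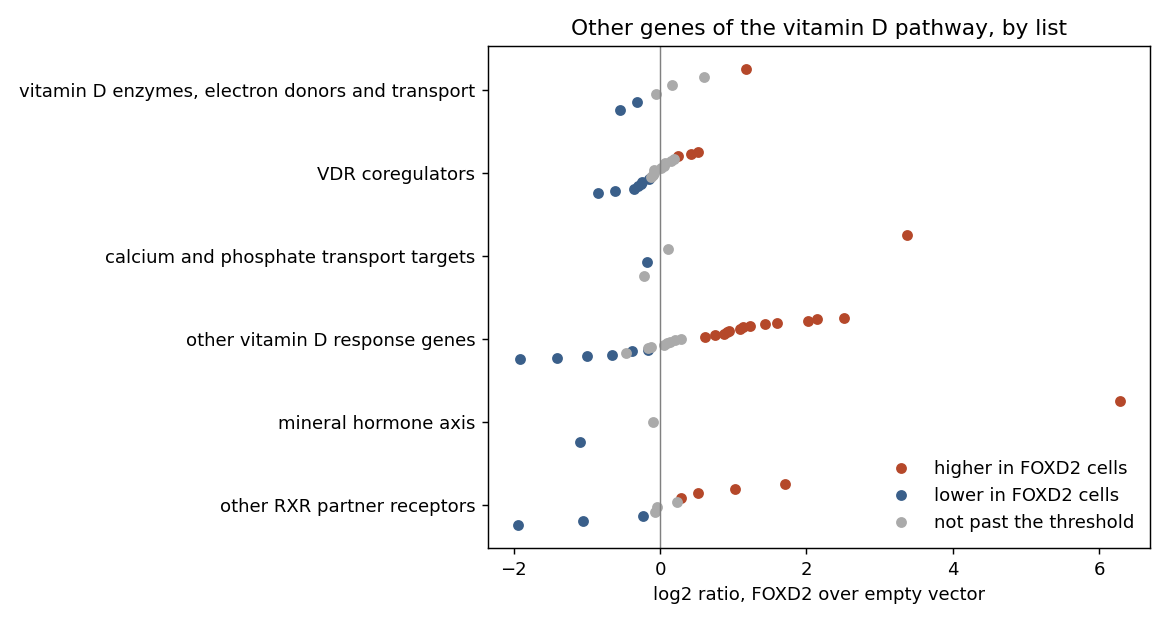
Fitted log2 ratio of FOXD2 over empty vector for the 69 tested genes of 6 vitamin D pathway lists, coloured by call (edgeR adjusted p under 0.05). Coregulators lie close to 0, between -0.85 and 0.52, whereas response genes span -1.91 to 2.52. The point at 6.29 is STC1, fitted against 2 counts in empty vector cells.

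The genes whose profile over the 4 libraries lay nearest to that of CYP24A1 (distance on centred log2 CPM) were TFPI, a coagulation inhibitor (0.106), the receptor tyrosine kinase MET (0.204), ADGRF1, an adhesion receptor (0.205), the protocadherin PCDH7 (0.294) and the metalloprotease ADAM19 (0.313). TFPI had 31 and 27 counts in FOXD2 libraries and 208 and 206 in empty vector libraries, a log2 ratio of -2.89 beside -2.90 for CYP24A1. With 2 groups of 2 libraries this likeness is mostly one of size of difference.

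CYP24A1 lies in a sparsely expressed stretch of chromosome 20. Of the 3 nearest protein-coding genes on each side, 2 passed the filter and both were lower in FOXD2 cells. PFDN4, a prefoldin chaperone subunit whose annotation begins 33.9 kb from that of CYP24A1, had 56.60 and 59.47 TPM in FOXD2 cells, against 113.01 and 109.65 TPM in empty vector cells (log2 ratio -0.85, SE 0.10, edgeR adjusted p = 1.1e-10). ZNF217, a zinc finger protein gene 543.5 kb away on the other side, had 5.52 and 6.30 TPM in FOXD2 cells, against 12.01 and 12.22 TPM in empty vector cells (-1.19, SE 0.10, adjusted p = 1.3e-14). Both differences were smaller than that of CYP24A1. BCAS1 had at most 3 counts in any library, and TSHZ2, DOK5 and CBLN4 had 0 in all. These 2 genes stand beside a background of 26.4% of tested genes called lower, and whether neighbours move together was not tested.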

How the data were processed

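The submitters' processing notes name RSEM 1.2.31, STAR 2.7.2b and GRCh38 (hg38); the annotation release and strand setting are not given in the sources used here. The authors' deposited tables give, per the file headers, RSEM expected counts per gene, which need not be whole, the authors' TPM, and a mean transcript length. Expected counts were rounded. Symbols were matched for 60370 of 60683 gene IDs and coordinates taken from GENCODE 29 (GRCh38) for 58496. FOXD2 was set against empty vector with edgeR 4.0.16 in R 4.3.3 (TMM, filterByExpr, robust quasi-likelihood test, Benjamini-Hochberg over 14470 genes). CPM use TMM-scaled library sizes; ratios are FOXD2 over empty vector, and intervals are 95% from the fit. Alternatives used DESeq2 1.42.0, limma 3.58.1, other scaling and filters, and each library left out. The fit was also run on simulated data with few changed genes, balanced in direction, and the same replicate variation for every gene. In these data 53.5% of tested genes were called, so that run does not show how the fit behaves here.

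The 10 genes and all lists were chosen with earlier results of these data known, so p-values of named list genes are descriptive only. From each list up to 6 genes were named, those with the largest ratio past the threshold at a mean log2 CPM of at least 0; any gene of the enzyme list could be named. NCOA1, SNW1, CYP51A1 and the genes of the other lists given at 0 or 1 counts lie outside this rule and were chosen after their values were seen. A result on 1 list gene that the rule names is not reported here. Separate cultures are not stated for the replicates; a p-value here reflects only how far these libraries vary, possibly for technical reasons. Replicates were compared before use: chi-square per degree of freedom was 3.91 between FOXD2 libraries and 2.52 between empty vector libraries, so neither pair agreed within sampling noise. Counts are of reads, not molecules, so limits cover counting error only.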

Additional observations from a re-analysis of the deposited data

How the results depend on the processing

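CYP24A1, VDR, RXRB, CYP2R1, CYP3A5 and FOXD2 kept their direction under all 14 alternatives run, and CYP24A1 lay between -3.0 and -2.78. The alternatives reuse the same 4 libraries, so they show dependence on processing and are no independent support. CYP3A5 passed the filter through the FOXD2 libraries only, where it is high. CYP27B1, never past the threshold, changed sign with library totals only (0.04), with limma on log2(TPM + 1) with or without the filter (0.17), with limma on log2(TPM + 0.1) (0.20) and among the fits that leave out 1 library (-0.16 to 0.12); the cause was not tested. RXRA passed only with RLE size factors (-0.18). Genes called numbered 3929 higher and 3814 lower; DESeq2 called 2414 higher, limma on log2(TPM + 1) 2442 lower, on log2(TPM + 0.1) 2436 lower, and without the filter 1961 higher and 1552 lower. The pathway lists then had 13 lower with either pseudocount, and 13 higher and 9 lower without the filter, against 23 and 20. Leaving out 1 library gave 3149 to 3579 genes higher and 3053 to 3676 lower, and 21 to 24 and 14 to 17 list genes; CYP24A1 lay between -3.0 and -2.82. A group of 1 library is then assumed to vary like the other.

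The replicate numbers are not stated to pair libraries, and deviations of same-numbered libraries correlated at -0.0988. With the number as a replicate block 3680 genes were higher and 3494 lower, and 23 and 16 list genes; CYP24A1 had a log2 ratio of -2.90. Depth limits TRPV6, CYP27A1, CAMP and the empty vector level of CYP3A5.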

Other observations

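Among other cytochrome P450 genes none was called lower in FOXD2 cells. Of 50 protein-coding P450 genes outside the 10 described, 13 were tested, of which 6 were higher, among them CYP2J2 of the enzyme list above, and 0 lower in FOXD2 cells by edgeR, beside 27.2% higher and 26.4% lower over all tested genes; no gene was lower at an unadjusted p under 0.05, nor with DESeq2 or limma-voom, and DESeq2 called 1 higher. CYP4V2, a fatty acid hydroxylase, had 14.7 ± 1.04 CPM in FOXD2 cells and 8.67 ± 0.276 CPM in empty vector cells (SD, n = 2 each; log2 ratio 0.77, edgeR adjusted p = 1.2e-05; 0.059 with limma on log2(TPM + 1)). CYP26B1, which breaks down retinoic acid, the ligand class of RXR partners, was higher by 0.34 (adjusted p = 0.0067; 0.14 with DESeq2, 0.072 without empty vector replicate 2). CYP4F3 (0.88, edgeR adjusted p = 0.007), CYP2S1 (0.36, 0.0033) and CYP4F11 (0.29, 0.041) were also higher. With DESeq2 they did not pass (adjusted p = 0.15, 0.096 and 0.31). CYP51A1, of cholesterol synthesis, had 128.5 ± 17.8 CPM in FOXD2 cells and 128.8 ± 7.66 CPM in empty vector cells and did not pass.

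Genes next to VDR on chromosome 12 went both ways. HDAC7, a histone deacetylase gene 8.4 kb from VDR by annotation, had 25.05 and 26.25 TPM in FOXD2 cells and 9.48 and 11.67 TPM in empty vector cells (log2 ratio 0.98, SE 0.09, edgeR adjusted p = 8.6e-14). SLC48A1, a heme transporter gene (0.69), and RAPGEF3 (2.34), which encodes a cAMP-activated exchange factor and passed the filter through the FOXD2 libraries only, were higher on the same side. On the other side SENP1 (-0.52), a SUMO protease gene, was lower, although not with limma on log2(TPM + 1) (adjusted p = 0.056), TMEM106C (-0.19) did not pass in 9 alternatives (adjusted p = 0.088 with DESeq2, 0.14 without FOXD2 replicate 2, 0.16 without empty vector replicate 1 and 0.06 without empty vector replicate 2), and COL2A1 had at most 3 counts. Next to CYP27B1, CDK4, a cell cycle kinase gene 6.3 kb away, fell to 132.48 and 135.11 TPM in FOXD2 cells, against 180.12 and 183.52 TPM in empty vector cells (-0.60, adjusted p = 7e-12), while MARCHF9 (-0.24) and METTL1 (-0.08), on either side of CYP27B1, did not pass. TSPAN31, a tetraspanin gene 12.1 kb from CYP27B1 on the side of CDK4, was higher (0.38, adjusted p = 0.049) but not in 9 alternatives (0.34 with DESeq2, 0.50 without FOXD2 replicate 2, 0.16 without empty vector replicate 1 and 0.14 without empty vector replicate 2). EEF1AKMT3, a lysine methyltransferase gene on the other side, had a ratio of -0.03 and did not pass.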
